A study of Mus musculus with 4 samples.

Results

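The striatins and their partners in the STRIPAK complex were followed through an anti-YTHDF2 RNA immunoprecipitation (RIP) of newborn mouse retina. The 9 genes were *Strn*, *Strn3*, *Strn4*, *Strip2*, *Mob4*, *Slmap*, *Fgfr1op2*, *Stk24* and *Stk25*, taken by symbol from a count table of 52550 genes. Of the 9, 8 passed the filter on low counts along with 13632 genes in all, and *Strip2* did not. Retinas came from wild type C57BL/6 mice at P0, the day of birth, and were dissociated with papain before the pulldown. The groups were input RNA and RNA eluted with the YTHDF2 antibody, each with 2 replicates. No library from the control IgG pulldown is among the samples, so recovery could not be compared with that control. The study had picked *Strn* as a YTHDF2 target by overlapping a list from these same libraries with proteins raised after YTHDF2 knockdown. It also reports m6A pulldown, mRNA level and mRNA stability of *Strn* from other experiments. Since these libraries were part of that choice, the values of *Strn* below are not independent evidence for it.

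STRIPAK (striatin-interacting phosphatase and kinase) is a complex in which striatins act as regulatory subunits of the phosphatase PP2A. Striatins scaffold the PP2A core, STRIP proteins and MOB4, while SLMAP and FGFR1OP2 belong to the adaptors and STK24 and STK25 to the germinal centre kinases that the complex binds. One well known role of STRIPAK is to keep the Hippo kinases dephosphorylated, and striatin itself was first described in neurons, where it is found in dendrites. YTHDF2 is a cytoplasmic reader of N6-methyladenosine (m6A) that binds methylated mRNAs and promotes their decay. A RIP compares how much of each RNA came down with the protein with how much was in the input. It does not say where on the RNA the protein sat.

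The 4 libraries held 19530226 to 39499994 counts, but most of them fell on 2 genes with ribosomal RNA sequence, 55.0% to 55.5% in the inputs and 85.3% to 87.8% in the RIP. Nuclear protein-coding genes received 2064465 to 3560122 counts per library, and this smaller number sets the precision below. Mitochondrial genes held 18.6% and 19.4% of the input counts, and 0.578% and 0.522% of the RIP counts. The replicates differed by more than sampling noise, with chi-square values per degree of freedom of 167 (input pair) and 22.6 (RIP pair) over 6858 genes. All 16 retinal markers had at least 10 counts in both inputs. At 0 in all 4 libraries were 4 of 6 lens markers (*Cryaa*, *Crygd*, *Crygc*, *Mip*). So were 4 of 6 markers of the retinal pigment epithelium (*Rpe65*, *Tyr*, *Tyrp1*, *Pmel*). These zeros do not show that either tissue was absent, since 1 other marker of each list reached 10 counts in both inputs. The highest input count was 19 among lens markers and 132 among pigment epithelium markers. That level was also reached in both inputs by 2 of 4 microglia markers and 1 of 3 blood markers, where the level is 10 counts. Summed endothelial markers (4 genes) stood at 33.4 and 32.3 normalized CPM (counts scaled to library size) in the inputs, and at 65.4 and 67.2 CPM in the RIP. Of these genes 2 had at least 10 counts in both inputs. Input counts ran from 6 to 1037, so the input sums came mostly from the highest gene and not from the set. The part of these markers in the results below was not tested.

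The 3 striatins carry the main contrast, and their transcripts differ in sequence as well as in recovery. m6A is most often placed at the adenosine of GGACT, one form of its consensus, and most densely near stop codons. In the longest coding transcript of each striatin, the copy of GGACT nearest to the stop codon is printed here 5′ to 3′ on the sense strand with 10 bases on each side, in capitals for the motif, from GENCODE M21 transcripts on GRCm38.
Strn: tacagcggcgGGACTgacgggcgga
Strn3: gaaagaaaaaGGACTccagtatctg
Strn4: tgagcctgggGGACTtggcagatct
The *Strn* copy was in coding sequence, 739 nt before the end of the stop codon (chr17:78661813-78661837, minus strand). The *Strn3* copy was in the 3′ UTR, 206 nt after the end of the stop codon (chr12:51609883-51609907, minus strand). The *Strn4* copy was in coding sequence, 1062 nt before the end of the stop codon (chr7:16831522-16831546, plus strand). A match is only a match of letters, and methylation was not measured in these libraries. On the transcript's own strand *Strn* held 5 copies of GGACT, 0.579 per kb, against 1.31 per kb in *Strn3* and 0.849 per kb in *Strn4*. The median over 11927 tested coding genes was 1.04 per kb, and 93.0% of them held at least 1 copy.

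*Strn* was enriched in the RIP and *Strn3* was depleted, while *Strn4* lay on the enriched side without passing the limit on fold change. The enriched call asked for a log2 fold change of 1 or more and an unadjusted p below 0.05 in edgeR's quasi-likelihood test, and the depleted call for -1 or less. None of the 3 passed an adjusted p of 0.05, a limit that 3.48% of all tested genes passed as enriched and 9.78% as depleted. In a whole tissue, fewer cells of a type and less RNA per cell cannot be told apart, in the input or in the RIP.

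*Strn*, the founding striatin (17:78649913-78737196, minus strand), had 89 counts in input replicate 1, 324 in input replicate 2, 596 in RIP replicate 1 and 453 in RIP replicate 2. Both RIP libraries were above both inputs, but the inputs themselves were far apart, at 2.67 and 9.44 CPM. The mean was 6.06 ± 4.79 CPM (SD, n = 2) in the input and 21.2 ± 3.39 CPM (SD, n = 2) in the RIP. The log2 fold change was 1.81 (SE 0.551, 95% interval 0.55 to 3.06, adjusted p = 0.0646 in edgeR, unadjusted limit passed), which is 3.50-fold and ranked 291 of 13632. Within replicate 1 the log2 ratio was 3.15, and within replicate 2 it was 0.996. The size of the enrichment thus rested on which input was used, since the 2 RIP libraries differed by a log2 of only -0.33.

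*Strn3*, whose product is also called SG2NA (12:51609632-51691897, minus strand), had 428 and 473 counts in the inputs against 166 and 146 in the RIP. Here the replicates lay close together within each group and both RIP libraries were below both inputs. The mean was 13.3 ± 0.670 CPM (SD, n = 2) in the input and 6.33 ± 0.361 CPM (SD, n = 2) in the RIP. The log2 fold change was -1.07 (SE 0.335, 95% interval -1.84 to -0.31, adjusted p = 0.0692, unadjusted limit passed), with replicate ratios of -0.96 and -1.18. *Strn3* sat just past the fold change limit, at -1.04 without RIP replicate 1, and fell short of it without RIP replicate 2 (-0.93).

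*Strn4*, the gene of zinedin (7:16815889-16840931, plus strand), had 303 and 255 counts in the inputs against 389 and 349 in the RIP. The groups did not overlap, with 8.26 ± 1.17 CPM in the input and 14.96 ± 0.643 CPM in the RIP (SD, n = 2 each). The log2 fold change was 0.86 (SE 0.334, 95% interval 0.10 to 1.62, adjusted p = 0.128), with replicate ratios of 0.76 and 0.97. *Strn4* passed the unadjusted limit on p but not that on fold change. Without input replicate 1 its log2 fold change was 1.009.

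**Figure D1:**
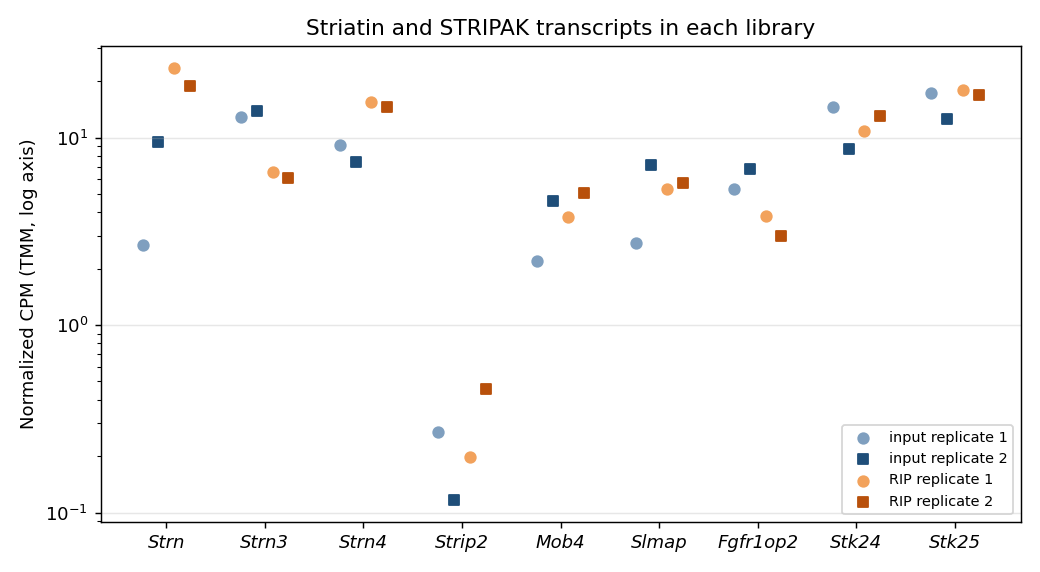
Normalized CPM of the 9 genes on a log axis, 1 point per library, with inputs in blue and RIP libraries in orange. *Strn* runs from 2.67 CPM in input replicate 1 to 23.6 CPM in RIP replicate 1, *Strn3* has both RIP points below both inputs, and *Strip2* stays under 0.5 CPM in all 4 libraries.

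Ratios between striatins within a library do not depend on how libraries are scaled against each other. The count ratio of *Strn* to *Strn3* was 0.208 and 0.685 in the inputs against 3.59 and 3.10 in the RIP. *Strn3* thus had the more counts in each input, and *Strn* in each RIP library. The ratio was 8.84-fold higher in the RIP (log2 difference 3.14). That it was the largest of the 3 pairs follows from setting the enriched striatin against the depleted one. Its size depended on the inputs, with a log2 difference of 2.28 without input replicate 1 and 4.005 without input replicate 2. *Strn3* to *Strn4* went from 1.41 and 1.85 to 0.427 and 0.418, which is 3.83-fold lower in the RIP. *Strn* to *Strn4* changed least, from 0.294 and 1.27 to 1.53 and 1.30, with a log2 difference of 1.21 that fell to 0.15 without input replicate 1. Each pair gave p = 0.333 in a two-sided exact permutation test, the smallest value that 2 libraries against 2 can give.

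On the length-corrected FPKM scale (fragments scaled to transcript length and library size), *Strn3* made up 57.6% and 51.1% of the summed striatin FPKM in the inputs against 17.8% and 18.8% in the RIP. *Strn* made up 8.94% and 26.2% in the inputs against 47.8% and 43.9% in the RIP. The share of *Strn4* was 33.4% and 22.8% in the inputs against 34.5% and 37.3% in the RIP. The first of the striatins by length-corrected level was thus *Strn3* in each input and *Strn* in each RIP library.

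**Figure D2:**
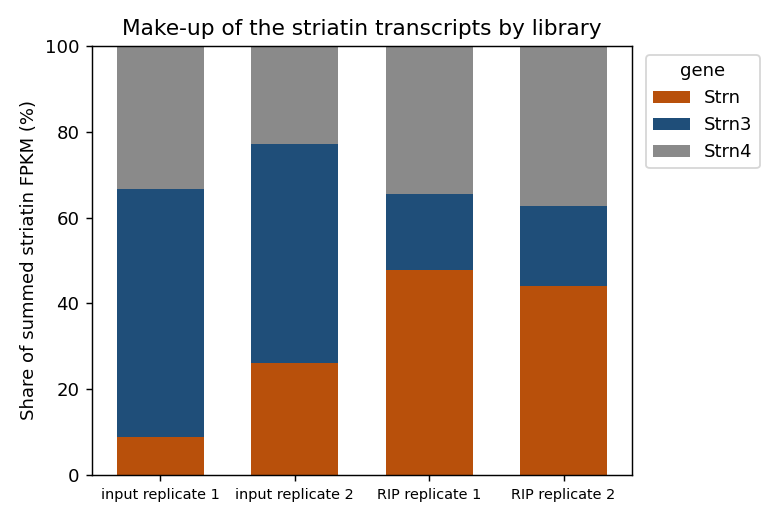
Share of the summed FPKM of *Strn*, *Strn3* and *Strn4* that each gene held, in percent, with 1 stacked bar per library. *Strn3* is the widest band in both inputs (57.6% and 51.1%) and *Strn* in both RIP libraries (47.8% and 43.9%).

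Among the scaffold and adaptor genes none was called. *Strip2*, a STRIP scaffold gene (6:29917012-29959681, plus strand), had 9 and 4 counts in the inputs against 5 and 11 in the RIP, too few for a test. *Mob4*, which encodes the MOB family protein phocein (1:55131231-55154899, plus strand), had 73 and 158 counts in the inputs against 95 and 122 in the RIP. Its groups overlapped, and its log2 fold change was 0.38 (SE 0.461, 95% interval -0.67 to 1.43, adjusted p = 0.632). *Slmap*, which encodes a membrane-anchored protein that docks the Hippo kinases on STRIPAK (14:26413168-26534931, minus strand), had 91 and 246 counts in the inputs against 134 and 138 in the RIP.

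The *Slmap* RIP values, 5.31 and 5.74 CPM, lay between the inputs of 2.73 and 7.17 CPM, and the log2 fold change was 0.16 (SE 0.488, 95% interval -0.95 to 1.27, adjusted p = 0.862). *Fgfr1op2*, a relative of the SLMAP partner gene *Sike1* (6:146577203-146599198, plus strand), had 178 and 234 counts in the inputs against 96 and 72 in the RIP. Both of its RIP libraries were below both inputs, at 3.81 and 2.99 against 5.34 and 6.82 CPM. Its log2 fold change of -0.84 missed both limits (SE 0.385, 95% interval -1.72 to 0.04, adjusted p = 0.186), and *Fgfr1op2* was at -1.003 without input replicate 1.

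The kinase genes were recovered near their input level, though their intervals do not show equality. *Stk24*, which encodes the kinase also called MST3 (14:121286343-121380011, minus strand), had 483 and 297 counts in the inputs against 273 and 312 in the RIP. Its log2 fold change was 0.04 (SE 0.375, 95% interval -0.81 to 0.89, adjusted p = 0.956), and the 2 replicates went opposite ways, at -0.42 and 0.58. *Stk25*, which encodes a close relative (1:93619751-93658659, minus strand), had 575 and 431 counts in the inputs against 453 and 406 in the RIP. Its log2 fold change was 0.22 (SE 0.341, 95% interval -0.55 to 1.001, adjusted p = 0.706). The count ratio of *Stk24* to *Stk25* was 0.840 and 0.689 in the inputs against 0.603 and 0.768 in the RIP, so the groups overlapped.

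**Figure D3:**
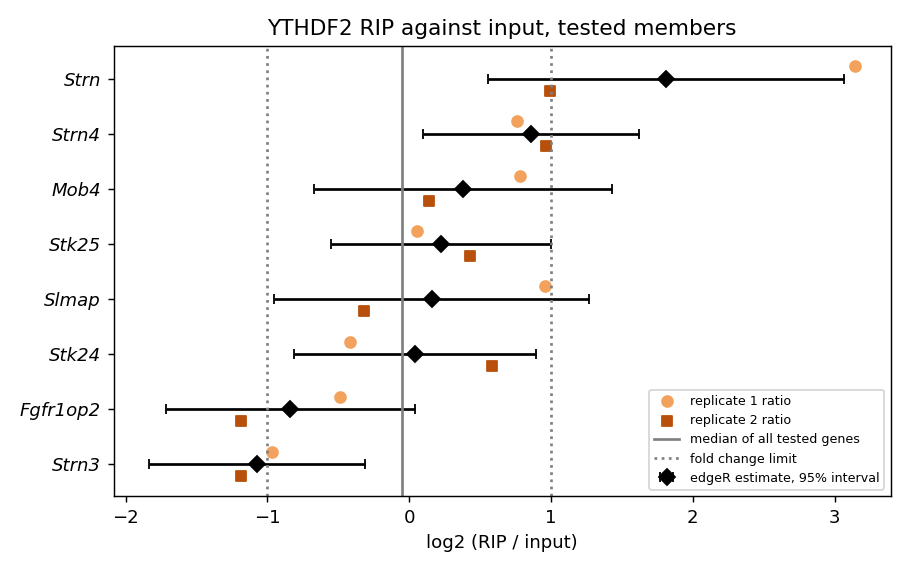
Log2 of RIP over input for the 8 tested genes, with the edgeR estimate and its 95% interval (diamond and bar) and the ratio within replicate 1 (circle) and replicate 2 (square). The solid line is the median of all tested genes (-0.05) and the dotted lines are the limits of -1 and 1. *Strn* (1.81) and *Strn3* (-1.07) lie past the limits.

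Of the 8 tested genes, 1 was enriched and 1 depleted, against 9.43% of all tested genes enriched and 17.2% depleted. Both RIP libraries were above both inputs for *Strn* and *Strn4*, 2 of 8 genes, against 29.6% of all tested genes. Both were below for *Strn3* and *Fgfr1op2*, 2 of 8, against 31.3%. The median log2 fold change was 0.19 over the 8 genes and -0.05 over all tested genes. With so few genes these counts are near the background. None of the 8 had an adjusted p below 0.05 in edgeR's quasi-likelihood test. In that test 3 had an unadjusted p below 0.05, against 4053 of all 13632 tested genes. DESeq2 gave an adjusted p below 0.05 for 1 (*Strn*). In edgeR's exact test 2 had one, *Strn* (adjusted p = 0.0147) and *Strn3* (adjusted p = 0.0388).

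By length-corrected level in the inputs, *Stk24* came first with 3.65 ± 0.9996 FPKM, followed by *Stk25* (2.17 ± 0.296), *Strn3* (1.72 ± 0.233) and *Fgfr1op2* (1.12 ± 0.295, SD, n = 2 each). *Strn4* (0.871 ± 0.0440), *Strn* (0.604 ± 0.513), *Mob4* (0.601 ± 0.354) and *Slmap* (0.533 ± 0.374) followed in FPKM, and *Strip2* was last at 0.0186 ± 0.00848 FPKM. The spread of *Strn*, *Mob4* and *Slmap* covers their neighbours, so their order in the input is not resolved. In the RIP *Strn* moved from rank 8 and 5 of the 9 in the inputs to rank 3 in both libraries, behind *Stk24* and *Stk25*. The deposited FPKM of *Stk24* imply a length of 2783 to 2908 nt where the union of its annotated exons is 5353 nt. Per kb of exon union *Stk25* ranked first in all 4 libraries, so the order of these kinase genes depends on the length used.

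The disagreement between the inputs was not shared evenly. Input 2 over input 1 was 3.54-fold for *Strn*, 2.63-fold for *Slmap* and 2.103-fold for *Mob4*, but 1.28-fold for *Fgfr1op2* and 1.07-fold for *Strn3*. *Strn4* (0.818), *Stk25* (0.728) and *Stk24* (0.597) were lower in input 2. The difference between the inputs moved with base composition over 6858 genes with at least 50 counts in each library (Spearman -0.622 with GC content, a description over genes that share libraries and are not independent). The longest transcripts of *Strn*, *Slmap* and *Mob4* were 44.7%, 46.1% and 37.8% GC, and those of *Strn4*, *Stk25* and *Stk24* were 51.8%, 50.3% and 53.0%. That of *Fgfr1op2* was 43.3% GC, lower than *Strn* and *Slmap*, though its inputs differed less than theirs. The longest transcript of *Strn3*, at 36.3% GC, also lay off that trend, though it is not the coding transcript used above. By coding sequence alone *Strn3* was at 45.8% GC, between *Slmap* (44.8%) and *Strn* (51.3%), and its inputs differed less than theirs. A trend over genes on the GC of coding sequence was not computed, and the cause of the difference between the inputs was not tested. The difference between the RIP libraries did not move with GC in this way (Spearman 0.00334).

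The log2 fold change of RIP over input also moved with transcript length (Spearman 0.475 over the same genes). *Strn* had the longest transcript of the 9 genes, 8629 nt against a median of 3588 nt over tested coding genes, and 5577 nt of its coding transcript were 3′ UTR. The coding transcripts of *Strn3* and *Strn4* had 471 and 788 nt of 3′ UTR, against a median of 1253 nt. These are single annotated transcripts. The unions of annotated exons lay closer together, at 8858 nt for *Strn*, 6646 nt for *Strn3* and 7958 nt for *Strn4*. Smooth trends of the fold change on length and GC were then taken out as an offset in the RIP libraries alone. The difference between the inputs was thus left as it was. *Strn* stayed called at 1.30 with an adjusted p of 0.217, and *Strn3* was no longer called (-0.52). With the replicate number as a block as well, *Strn* was at 1.51 (adjusted p = 0.0440) and *Strn3* at -0.60. Density of GGACT moved little with the fold change across genes (Spearman 0.0952 over 6632 genes).

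**Figure D4:**
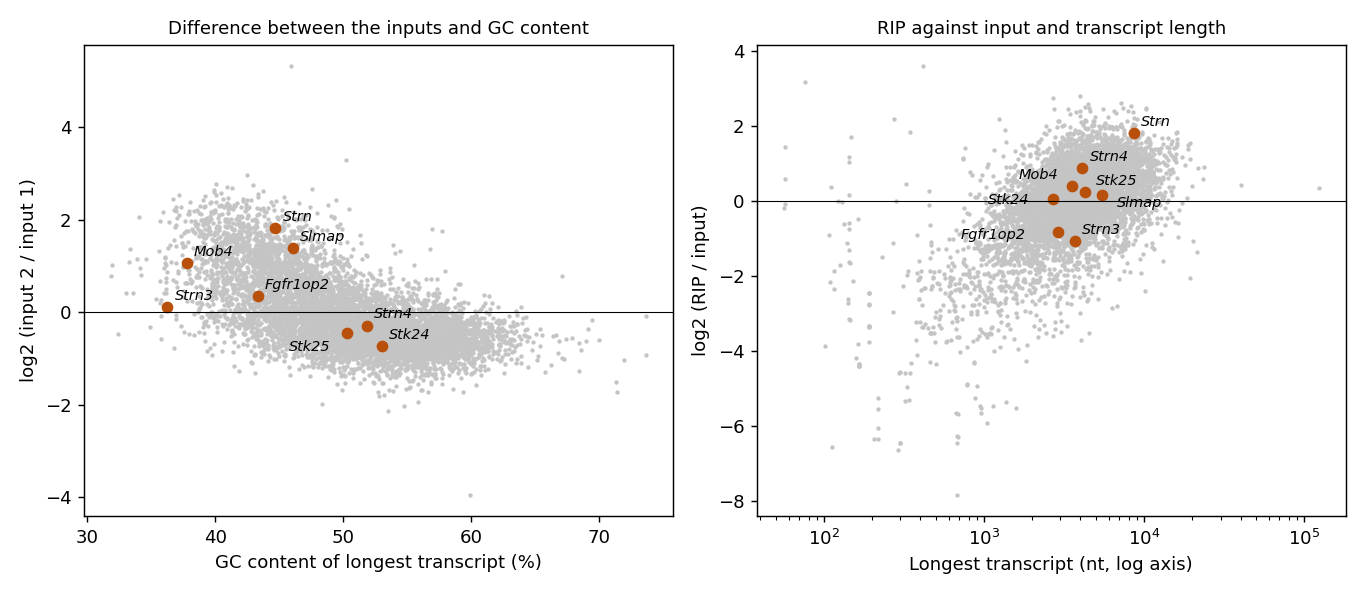
Left, log2 of input 2 over input 1 against GC content of the longest transcript (%), and right, log2 of RIP over input against transcript length (nt, log axis). Grey points are genes with at least 50 counts in each library and orange points are the 8 tested genes. *Strn*, at 44.7% GC and 8629 nt, lies high in both panels, and *Strn3*, placed by the 36.3% GC of its longest transcript, lies below most genes of that GC on the left.

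*Strn*, *Strip2*, *Mob4* and *Stk24* overlapped no other annotated gene. *Strn3* overlapped *Ap4s1* (138 counts over the 4 libraries), *Fgfr1op2* overlapped *Ints13* (384) and *Stk25* overlapped *Farp2* (89), each on the opposite strand. The library kit keeps strand, but the strand setting of the counting is not given in the sources used here, so reads of these pairs may not have been told apart. Of the 50-base words of *Stk25* transcripts, 19.4% were shared with another gene, and of the other 8 genes at most 2.64%.

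Of 16 further STRIPAK genes, 14 were tested, and *Pdcd10* alone was called, against 26.6% of all tested genes called either way. *Pdcd10* encodes CCM3, the protein that ties STK24 and STK25 to striatins. It had 114 and 139 counts in the inputs against 5 and 21 in the RIP, 3.74 ± 0.447 against 0.536 ± 0.477 CPM (SD, n = 2 each). Both RIP libraries were far below both inputs, with a log2 fold change of -2.80 (SE 0.639, adjusted p = 0.0246). Leaving out a RIP library kept the direction but not the size, at -2.003 without RIP replicate 1 and -4.13 without RIP replicate 2. With trends on length and GC taken out the value was -1.53, still called but with an adjusted p of 0.208. The other 13 tested genes lay between -0.93 and 1.08, with a median of 0.15 over all 14. *Stk26*, the remaining gene of this kinase group, had no count in any library, and *Traf3ip3* had 3 counts, all in RIP replicate 1.

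The catalytic subunits of PP2A moved apart, though neither passed the fold change limit (both passed that on unadjusted p), and both are named here after their values were seen. *Ppp2ca* had 603 and 605 counts in the inputs against 876 and 758 in the RIP (log2 fold change 0.89, adjusted p = 0.108). *Ppp2cb* had 209 and 150 counts in the inputs against 72 and 66 in the RIP (-0.93, adjusted p = 0.157). The count ratio of *Ppp2ca* to *Ppp2cb* was 2.89 and 4.03 in the inputs against 12.2 and 11.5 in the RIP, which follows from their opposite fold changes. With trends on length and GC taken out the gap shrank, to 0.43 for *Ppp2ca* and -0.20 for *Ppp2cb*, and neither passed the unadjusted limit on p.

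None of 17 genes for other PP2A regulatory subunits and assembly factors was called in edgeR's test, against 26.6% of all tested genes called either way, and DESeq2 called 0 as well. Their log2 fold changes ran from -0.98 to 0.67 with a median of -0.22. An unadjusted p below 0.05 in edgeR was found for 3, all on the depleted side, against 4053 of all 13632 tested genes. Of 21 Hippo pathway genes 20 were tested and 2 were enriched, near the background of 9.43%, with a median of 0.26. *Lats2*, a kinase that phosphorylates YAP, had 114 and 118 counts in the inputs against 190 and 189 in the RIP (1.16, SE 0.361, adjusted p = 0.0680). *Yap1*, the transcriptional coactivator at the end of the pathway, had 235 and 263 counts in the inputs against 379 and 411 in the RIP (1.13, SE 0.332, adjusted p = 0.0584). With trends on length and GC taken out neither was called (0.61 and 0.78), while *Tead1* and *Tead2*, genes of YAP-binding transcription factors named here after their values were seen, were called depleted. Without RIP replicate 1 *Lats2* was at 1.29 and *Yap1* at 1.31, and without RIP replicate 2 they were at 1.22 and 1.11.

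The 5 tested genes whose profile over the 4 libraries was nearest to that of *Strn* were *Slc1a2*, *Mtx3*, *Wdr26*, *Dzank1* and *Uhmk1*. The measure was the Euclidean distance between log2(CPM + 0.5) values, each gene centred on its own mean, and ran from 0.210 for *Slc1a2* to 0.278 for *Uhmk1*. *Slc1a2*, which encodes the glutamate transporter GLT-1, had 164 and 613 counts in the inputs against 978 and 904 in the RIP. *Wdr26* had 232 and 717 counts in the inputs against 1462 and 1252 in the RIP. Both shared with *Strn* the low value in input replicate 1 as well as the high values in the RIP.

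In all 13 alternative settings that kept the 4 libraries *Strn* was called enriched, with log2 fold changes from 1.15 to 2.12. There its adjusted p ran from 0.0013 (edgeR with the replicate block) to 0.217 (edgeR with trends on length and GC taken out). *Strn* was at 1.69 without RIP replicate 1 and at 2.01 without RIP replicate 2. Leaving out input replicate 1 gave 1.17, and leaving out input replicate 2 gave 2.98. P-values and calls of fits with a library left out are not counted here, since their spread came from the pair of the other group. *Strn3* stayed below 0 in all 17 alternatives, from -1.14 to -0.45, and was called depleted in 7 of those 13. Its adjusted p in the 13 ran from 0.0388 (edgeR's exact test) to 0.534 (edgeR with trends taken out and the replicate block). *Strn4* stayed above 0 in all 17, from 0.52 to 1.20, and was called enriched in 2 of the 13. *Stk24* and *Stk25* were called in none, and their log2 fold changes crossed 0.

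**Figure D5:**
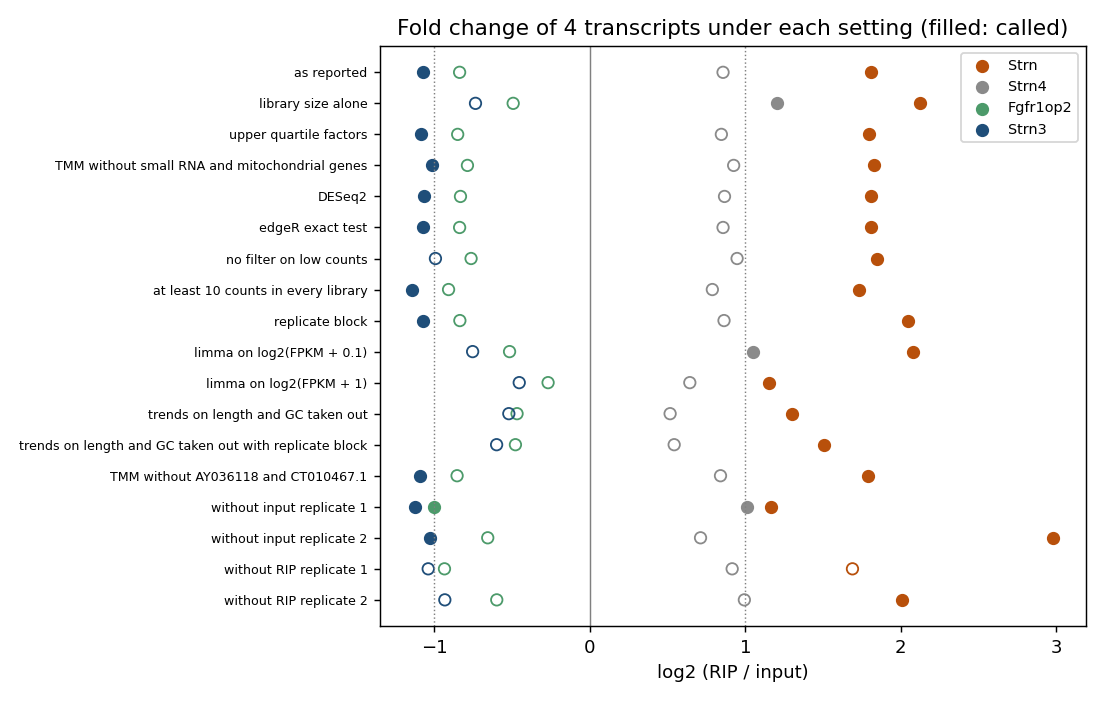
Log2 of RIP over input for *Strn*, *Strn4*, *Fgfr1op2* and *Strn3* in the reported fit and under 17 alternative settings, 1 row per setting, with filled points where the gene passed both limits and dotted lines at -1 and 1. *Strn* is filled in all rows that keep the 4 libraries. Among those rows *Strn3* is unfilled with library size alone, with no low-count filter, in both limma rows and in both rows with trends taken out. In rows with a library left out, the fill rests on the spread of the pair of the other group.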

How the data were processed

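RNA of 2 input and 2 anti-YTHDF2 RIP libraries was sequenced after a stranded TruSeq preparation. The authors deposited raw counts per gene and FPKM values per gene in separate tables, and the submitters' processing notes name STAR 2.5, HTSeq and GRCm38. The annotation release and the strand setting of the counting are not given in the sources used here. Counts were fitted over all genes in R 4.3.3 with edgeR 4.0.16 (filterByExpr with a minimum count of 10 and a minimum total of 15, TMM factors, quasi-likelihood test, RIP against input, Benjamini-Hochberg adjustment over 13632 genes). CPM use the TMM factors. FPKM served for levels between genes, and with limma 3.58.1 as an alternative, on log2(FPKM + 0.1) and log2(FPKM + 1), for genes with a mean of at least 0.1 FPKM. The added constant shrinks the fold changes of low genes, but FPKM also carry no TMM factor. On log2(FPKM + 0.1) *Strn* was at 2.08, near its 2.12 with library size alone and above the 1.81 of the main fit. On log2(FPKM + 1) it was at 1.15.

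The other alternatives were library size alone, upper quartile factors, TMM without small RNA and mitochondrial genes, DESeq2 1.42.0, edgeR's exact test, no low-count filter, a minimum of 10 counts in each library, the replicate number as a block, smooth trends on length and GC as offsets (mgcv 1.9.3, basis of 8) with and without the block, and each library left out. TMM without AY036118 and CT010467.1 was added after seeing the data. Where a library was left out, the single library of its group was assumed to vary like the others. The fit was tested on simulated data.

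Transcript features came from GENCODE M21 on GRCm38. The overlaps of genes with their neighbours are not all reported here. All 9 genes were named. From the further lists, genes past both limits were named, at most 5 a list, and as genes most like *Strn* the 5 nearest. The members and lists were chosen with earlier results of these data known. The labels number replicates 1 and 2 in each group and the design text gives each replicate an input and a pulldown, so replicate ratios are given. The study calls the replicates biological, but which retinas went into each is not given, and p-values measure the spread between these libraries. Counting error alone is smaller than that spread.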

Additional observations from a re-analysis of the deposited data

How the results depend on the processing

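With 2 libraries a group and 2064465 to 3560122 protein-coding counts a library, the standard errors of the 8 tested genes were 0.334 to 0.551 on the log2 scale. Library size alone in place of TMM moved the median of all tested genes from -0.05 to 0.27 and the enriched share of all calls from 35.4% to 57.7%. It gave 2357 enriched genes, 2 enriched and 0 depleted among the 8 tested striatin and STRIPAK genes (median 0.51), 5 calls among the further STRIPAK genes and 4 among the Hippo genes. With no filter 0 of the 8 were depleted. Where each library had to hold 10 or more counts, the further STRIPAK genes had 0 calls, since *Pdcd10* was removed before the test, and other PP2A genes 2, and *Stk24* was at -0.027.

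Limma on log2(FPKM + 0.1) gave 2 enriched and 0 depleted of the 8 (median 0.47), 4 further STRIPAK calls and an enriched share of 45.6%. On log2(FPKM + 1) there were 386 enriched and 1055 depleted genes (enriched share 26.8%), 0 of the 8 depleted, and 0 calls among the further STRIPAK and the Hippo genes. With trends on length and GC taken out there were 1520 depleted genes, 0 of the 8 depleted (median 0.0079), 3 further STRIPAK and 1 other PP2A call, *Slmap* at -0.25 and *Stk25* at -0.11. With the replicate block added there were 1498 depleted genes, 0 of the 8 depleted (median 0.062), again 3 and 1 calls, *Slmap* at -0.10 and *Stk25* at -0.069.

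The replicate block alone put *Strn* at 2.05 (adjusted p = 0.0013) and gave 2 calls among the further STRIPAK and 4 among the Hippo genes. The difference between the inputs and that between the RIP libraries, replicate 2 minus 1, were not correlated over genes (Pearson r = -0.0237 over 13632 genes), and only 2 pairs exist.

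Leaving out each library in turn gave 670 to 2097 enriched and 1562 to 2610 depleted genes, 0 to 3 enriched and 0 to 2 depleted of the 8 with a median of 0.18 to 0.36, 1 to 4 further STRIPAK calls, 0 to 3 other PP2A calls and 0 to 9 Hippo calls. Counts of calls in these fits rest on the spread of the pair of the other group. Without input replicate 1 *Mob4* was at -0.060 and *Slmap* at -0.38, and without input replicate 2 they were at 1.004 and 1.009. *Stk24* was at 0.46 without input replicate 1 and at -0.29 without input replicate 2. The causes were not tested.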
